A study of Mus musculus with 33 samples.

Results

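The RNA of 7 subunits of the GABA-A receptor was followed through sleep loss in the mouse frontal cortex. The subunits were Gabra2, Gabra3, Gabra4, Gabra5, Gabrb1, Gabrb2 and Gabrd, taken by symbol as 7 of the 21565 genes in the table, and all of them passed the filter on low values in every comparison. GABA-A receptors are chloride channels built of 5 subunits around a pore, and they carry most of the fast inhibition in the cortex. In a common form, alpha and beta subunits form the sites where GABA binds, and a gamma subunit joins the receptor to the synapse and forms, with an alpha subunit, the site of the benzodiazepines. The delta subunit takes the place of gamma in receptors that lie outside the synapse and answer to the low level of GABA around the cell, mostly together with the alpha 4 subunit in the forebrain, while alpha 5 is also found mainly outside synapses. Many sedatives and anaesthetics act on these receptors.

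Libraries came from 33 adult male mice, 1 mouse each, on a C57BL/6J background. WT mice were left to sleep at will (control sleep, CS, n = 6), kept awake for 6 hr (SD, n = 7), or deprived and then given 2 hr of recovery sleep (RS, n = 7). By the study's methods the deprivation of RS mice was shorter than that of SD mice, so that both were sampled at the same hour. Floxed Mef2c f/f mice carry loxP sites in the gene of the transcription factor MEF2C and no Cre (CS, n = 4, and SD, n = 3). Mef2c-cKO mice carry the same floxed gene and Camk2a-Cre, which is active in forebrain excitatory neurons, so that other cells keep the gene (CS, n = 3, and SD, n = 3), although the study's methods state that the deletion also reached the germline in some of them. Tissue was collected at ZT 6, within the hours in which mice mostly sleep, and the mice were by then housed in constant darkness.

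The levels given are CPM, the reads of a gene scaled to the total of its library, rescaled so that the typical gene is even across libraries, and a level per kb is this value divided by the exonic length of the gene in kb. Total reads ran from 44395583 to 249046089 in WT libraries and from 18935045 to 94678945 in the others, so that even the lowest member value rested on 641 reads (Gabrd in a Mef2c-cKO CS library), and the precision of the group means was set by the spread between mice. Markers of excitatory and inhibitory neurons were found in every library, and the summed level of 3 cerebellar granule cell markers stayed at or below 0.658. Mef2c itself, counted over the whole gene, had a mean of 1430 ± 323 (SD, n = 6) in WT CS, 1150 ± 67.3 (n = 4) in Mef2c f/f CS and 1430 ± 415 (n = 3) in Mef2c-cKO CS. Only 1 exon is removed in the knockout, so that a count over the gene checks nothing about the deletion. Of the 33 libraries, 3 stood apart in marker genes. In replicate 8 of Mef2c-cKO CS the summed level of 5 astrocyte markers was 2340 against 715 and 756 in the other two of its group, in replicate 5 of that group 4 markers of meninges and choroid plexus summed to 330 against 33.7 and 36.5, and in WT CS replicate 1 the same markers summed to 202 against a group median of 36.4. The same counts of subunits were called without WT CS replicate 1 from CS to SD, and without either Mef2c-cKO library against Mef2c f/f in CS, where the count was 0. From CS to RS in WT the count went from 2 to 0 without WT CS replicate 1, and calls over all genes from 2232 to 223. In WT CS, replicate 2 had the lowest scale factor of all libraries, 0.7165.

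Of the 7 genes, 3 lie on mouse chromosome 5 (GRCm38), with Gabra2 at 70957597 to 71095849, Gabra4 at 71569749 to 71658308 and Gabrb1 at 71658113 to 72149037. Gabra3 is on the X chromosome, Gabra5 on chromosome 7, where a gene annotated on the opposite strand overlaps it, Gabrb2 on chromosome 11 and Gabrd on chromosome 4. Gabra4 and Gabrb1 are read away from each other, and their first starts in RefSeq overlap by 388 bases, at 71658308 and 71657921. Reads from this overlap could be told apart only by strand, and the counting setting for strand is not given in the sources used here. Promoter windows of 250 bases before to 50 after the start were found for 6 of the 7 members in RefSeq (GRCm38.p6), 10 windows in all. They were searched on both strands for the MEF2 element (CTA, 4 bases that are each A or T, TAG), the cAMP response element TGACGTCA, the AP-1 site TGACTCA and the E-box CACGTG. The only match was a MEF2 element in the first window of Gabrb2 that began 31 bases before the start, and such an element was held by 0.557% of 32851 windows of the same length. The other motifs were held by 1.79%, 5.2% and 7.15% of those windows. Shown is the Gabrb2 window (chr11:42420190-42420489, plus strand), since it alone holds the element of the deleted factor, with the match in capitals. The facing windows of Gabra4 (chr5:71658259-71658558, minus strand) and Gabrb1 (chr5:71657671-71657970, plus strand) are shown since these neighbours overlap at their starts. Each window is given 5′ to 3′. The letters of the match overlap the sequence TATAAA of a TATA box.
Gabrb2: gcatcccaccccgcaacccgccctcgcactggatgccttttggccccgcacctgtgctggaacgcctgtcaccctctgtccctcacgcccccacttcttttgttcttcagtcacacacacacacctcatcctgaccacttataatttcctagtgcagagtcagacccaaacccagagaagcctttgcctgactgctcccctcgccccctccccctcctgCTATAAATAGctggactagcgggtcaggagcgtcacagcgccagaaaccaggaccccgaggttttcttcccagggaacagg
Gabra4: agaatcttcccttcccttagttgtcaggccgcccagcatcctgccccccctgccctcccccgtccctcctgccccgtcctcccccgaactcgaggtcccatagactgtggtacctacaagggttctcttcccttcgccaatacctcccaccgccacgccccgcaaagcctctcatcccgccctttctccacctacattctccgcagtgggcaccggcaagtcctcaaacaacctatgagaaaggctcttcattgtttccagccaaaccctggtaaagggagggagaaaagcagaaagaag
Gabrb1: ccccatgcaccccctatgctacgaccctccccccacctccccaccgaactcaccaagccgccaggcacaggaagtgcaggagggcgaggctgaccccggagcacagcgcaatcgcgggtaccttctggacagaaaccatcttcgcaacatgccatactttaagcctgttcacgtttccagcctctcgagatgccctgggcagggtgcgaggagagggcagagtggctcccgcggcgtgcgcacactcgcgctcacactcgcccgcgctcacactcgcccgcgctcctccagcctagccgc

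Per length, Gabrb2 was the most abundant of the 7 in WT CS, at 102 ± 20.9 rescaled CPM per kb (SD, n = 6). Gabrb1 with 56.0 ± 12.2, Gabra4 with 52.5 ± 17.9, Gabra2 with 39.2 ± 12.5 and Gabra3 with 37.7 ± 8.91 per kb followed, and from Gabrb1 to Gabra3 each differed from the next by less than the larger SD of the pair. Gabra5 with 24.5 ± 4.64 and Gabrd with 15.8 ± 5.98 per kb were the lowest. Gabrb2 also came first in all other groups. As a share of the summed level per kb of the 7 genes, Gabrb2 made up 31.2 ± 1.36% in WT CS and 28.8 ± 1.23% in WT SD, and the sum itself was 328 ± 70.3 in CS against 209 ± 14 in SD and 244 ± 45.6 in RS. The share of Gabrd was 5.16 ± 2.40% in CS and 9.67 ± 1.75% in SD, that of Gabra5 7.54 ± 0.998% and 8.41 ± 1.06%, and that of Gabra3 11.5 ± 1.10% and 12.5 ± 1.05%. That of Gabra4 was 15.7 ± 1.99% and 13.5 ± 1.08%. Of the shares given here, those of Gabrd, Gabrb2 and Gabra4 differed by more than both SDs, with Gabrd higher in SD and the others lower. The sum was lower in SD, and the level of Gabrd itself was not called. A lower level of a subunit in whole tissue may reflect fewer cells of a type or less RNA per cell, and these cannot be told apart.

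**Figure D1:**
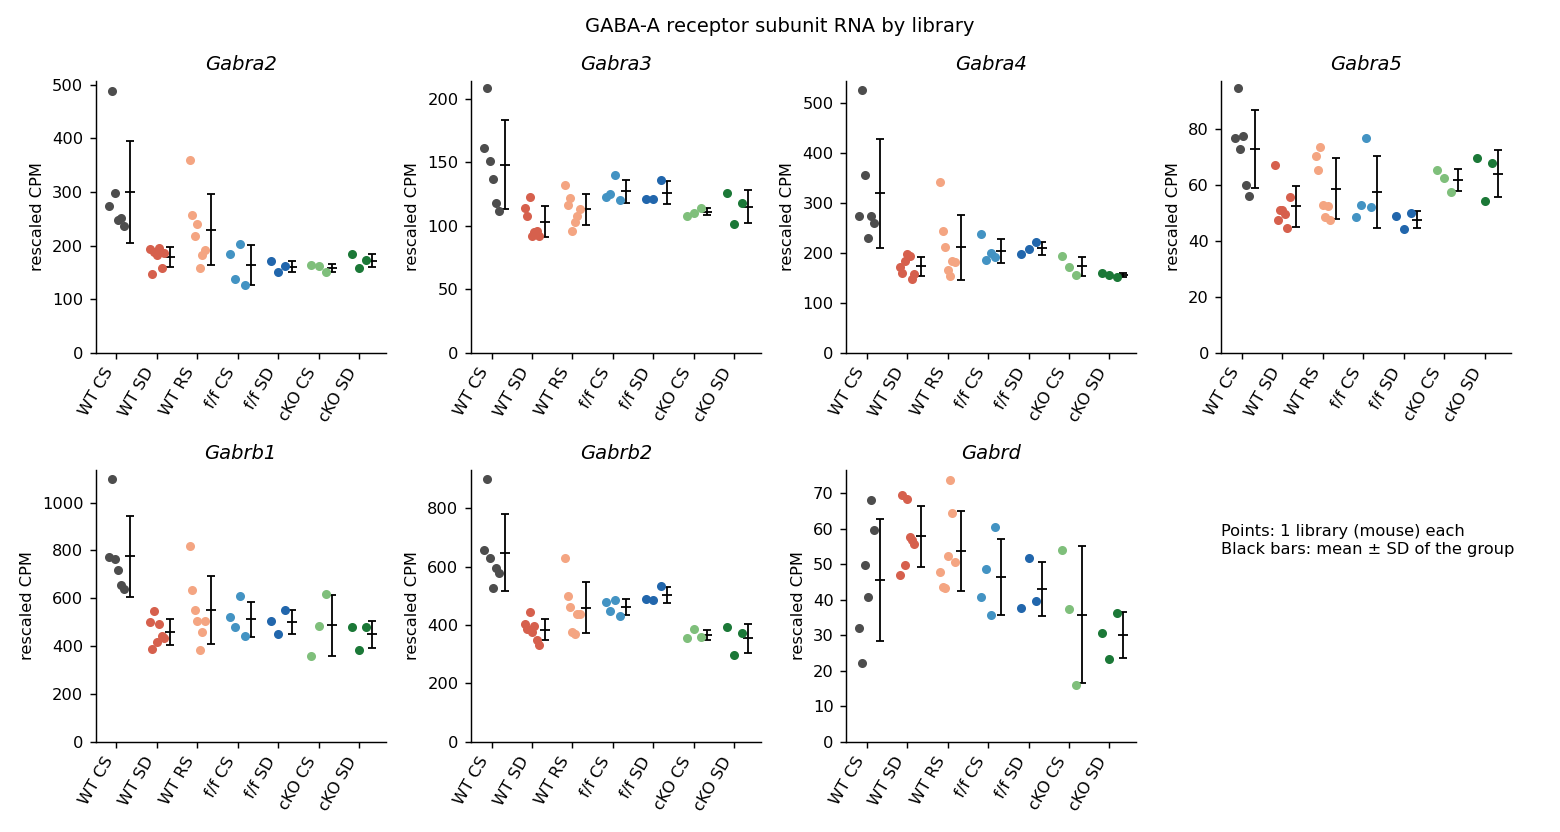
Level of each subunit in every library, in rescaled CPM on a linear axis from 0, for the 7 groups (CS, control sleep, SD, sleep deprivation, RS, recovery sleep, f/f, Mef2c f/f). Each point is 1 mouse and black bars give the mean ± SD, and in WT the SD points of Gabra2, Gabra4, Gabrb1 and Gabrb2 all lie below the CS points.

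Does sleep loss change the receptor's RNA in WT mice? Of the 7 subunits, 6 fell from CS to SD, each by 0.46 to 0.83 on the log2 scale, which left 56.1% to 72.5% of the CS level, and only Gabrd did not. Over all 12913 genes tested, 20.5% were called lower and 24.6% higher. The median log2 fold change of the 7 members was -0.70 against 0.04 for all genes tested. The members were chosen with earlier results of these data known, so such contrasts with all genes only describe them.

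Gabrb2, a beta subunit found in a large part of cortical receptors, ranged from 525 to 902 rescaled CPM in CS (median 613) and from 332 to 443 in SD (median 387). No SD mouse reached the lowest CS mouse, and the log2 fold change was -0.74 (SE 0.11, adjusted p = 0.000717, limma). Gabrb1, its paralog, ranged from 640 to 1100 in CS (median 740) and from 386 to 547 in SD (median 443). Here too the groups did not overlap, with a log2 fold change of -0.74 (SE 0.12, adjusted p = 0.00104).

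Gabra4, the usual partner of delta, had the largest change of the 7, with 229 to 525 in CS (median 274) and 147 to 197 in SD (median 172). Its log2 fold change was -0.83 (SE 0.16, adjusted p = 0.00186) and the groups did not overlap. Gabra2, a synaptic alpha subunit known from the initial segment of the axon, had 237 to 489 in CS (median 263) and 148 to 195 in SD (median 186). It fell by 0.70 on the log2 scale (SE 0.15, adjusted p = 0.00292), again with no overlap.

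Gabra3 and Gabra5 changed less, and their groups overlapped. Gabra3, an alpha subunit of deep cortical layers, ranged from 112 to 208 in CS (median 144) and from 92.3 to 123 in SD (median 95.6), with a log2 fold change of -0.50 (SE 0.13, adjusted p = 0.00869). Gabra5 ranged from 56.1 to 94.5 in CS (median 74.7) and from 44.5 to 67.0 in SD (median 50.9), with a log2 fold change of -0.46 (SE 0.12, adjusted p = 0.00872). Groups that did not overlap were seen in 4 of the 7 subunits and in 15.1% of all genes tested.

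Gabrd, the delta subunit, was not called, and its estimate had the opposite sign. It ranged from 22.2 to 68.2 in CS (median 45.3) and from 46.9 to 69.4 in SD (median 56.7), and 3 CS mice lay within the SD range. The log2 fold change was 0.43 (95% interval -0.02 to 0.88, adjusted p = 0.0999). It was 0.24 without WT CS replicate 2, and Gabrd was called without WT CS replicate 5, at 0.56. Without rescaling, on the CPM as deposited, Gabrd was called higher at 0.70 (adjusted p = 0.0277), and Gabra3 and Gabra5 were not called, at -0.22 and -0.19, while the median of all genes tested stood at 0.30. The remaining 4 subunits were called lower on that scale, by estimates of -0.43 for Gabra2, -0.56 for Gabra4, -0.46 for Gabrb1 and -0.46 for Gabrb2. With quantile normalization the same 6 subunits were called as with rescaling, at -0.35 to -0.61.

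The size of these changes moved with base composition. Across genes in this comparison the log2 fold change had a Spearman rho of 0.721 with the GC content of the transcript, as a description over 12443 genes of the same libraries. The transcripts of the 6 subunits that fell hold 38.4% to 47.1% GC and that of Gabrd 54.7%. When every library was first corrected for GC content and length, the count of called subunits dropped from 6 to 3, namely Gabra4 at -0.55 (adjusted p = 0.00227), Gabrb2 at -0.52 (adjusted p = 0.000357) and Gabra5 at -0.39 (adjusted p = 0.012). Calls over all genes dropped in the same fit, from 5826 to 2550. Gabra2 at -0.21, Gabra3 at -0.25 and Gabrb1 at -0.22 kept adjusted p values of 0.0236, 0.0348 and 0.00823 but lay under the fold change needed for a call, and Gabrd came to 0.10 (adjusted p = 0.66). The part of base composition in the difference between CS and SD was otherwise not tested.

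**Figure D2:**
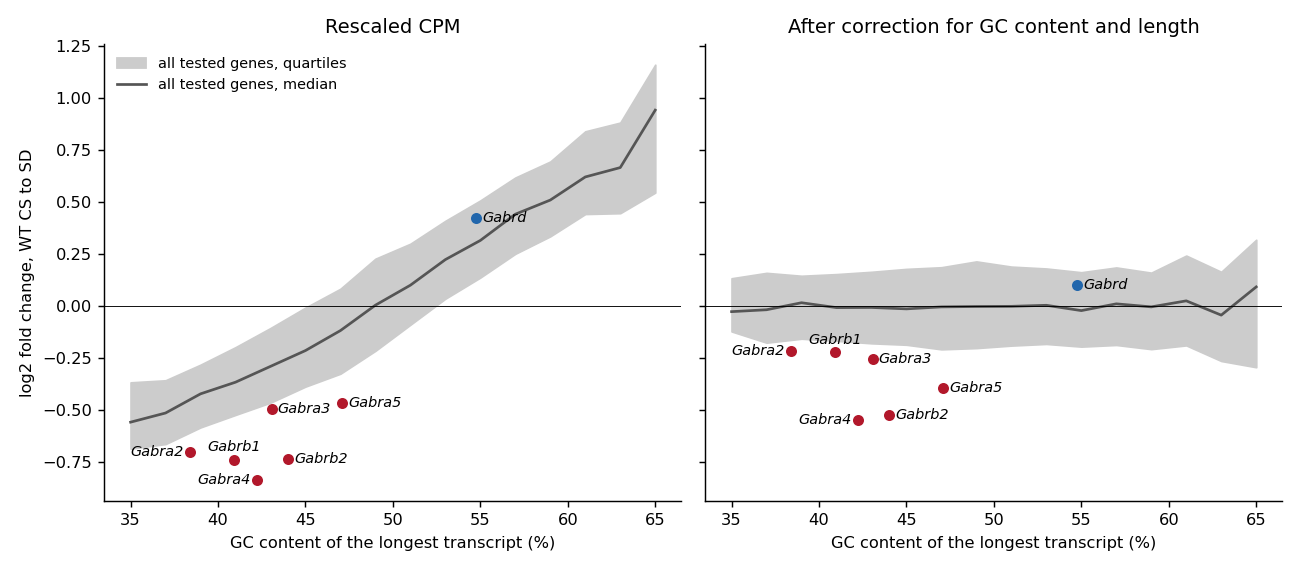
GC content of the longest transcript in % against the log2 fold change of WT CS to SD, on rescaled CPM (left) and after correction for GC content and length (right). The line and band give the median and quartiles of all tested genes in bins of 2% GC, points are the 7 subunits, and after correction the 6 lower subunits lie between -0.21 and -0.55.

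WT CS replicate 2 was the highest CS mouse for each of the 6 subunits that fell and the lowest for Gabrd, at 22.2. Without this library the same 6 subunits were called, with log2 fold changes of -0.55 for Gabra2, -0.39 for Gabra3, -0.68 for Gabra4, -0.38 for Gabra5, -0.63 for Gabrb1 and -0.64 for Gabrb2. Summed markers of excitatory neurons ran from 1190 to 1580 in CS and from 1390 to 1720 in SD, and those of inhibitory neurons from 561 to 760 and from 626 to 824. Of the 5 excitatory markers 1 was called lower and of the 7 inhibitory markers 2 higher. Summed striatal neuron markers ran from 214 to 473 in CS, 350 to 713 in SD and 375 to 595 in RS, with 2 of 5 called higher in SD and 2 in RS, and astrocyte markers from 479 to 1040 in CS and 581 to 808 in SD, with 2 of 5 higher. The part of these cells in the result was not tested.

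Other genes of the pathway did not all follow the 6 subunits. Of the 12 remaining GABA-A subunit genes, 5 were expressed enough to be tested, 4 were called lower in SD and none higher, with a median log2 fold change of -0.72. Of 19 genes for assembly, anchoring and trafficking of the receptor, 5 were lower and 4 higher (median 0.12). Gphn, which encodes gephyrin, the scaffold that holds the receptor at inhibitory synapses, fell from 600 ± 180 to 321 ± 43.9, a log2 fold change of -0.87 (adjusted p = 0.00117). Plcl2, which encodes a phospholipase C-like protein that binds receptor partners, fell by 0.41 on the log2 scale (adjusted p = 0.0042).

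Among the 8 genes for GABA synthesis, release, uptake and breakdown, 3 were higher and none lower (median 0.32). The GABA transporter gene Slc6a13, which is expressed mainly in the meninges, rose from 4.78 ± 2.65 to 12.8 ± 3.59, a log2 fold change of 1.44 (adjusted p = 0.00166). Summed markers of meninges and choroid plexus ran from 28.4 to 202 in CS and from 39.1 to 62.0 in SD, with 2 of 4 called higher and 1 lower. The part of these markers in the rise of Slc6a13 was not tested. Among them Col1a1 ran from 0.861 to 4.51 in CS and from 5.04 to 20.6 in SD. It passed the filter on low values only through SD, where it is high, so its call is no evidence of a difference. Of 5 genes of the GABA-B receptor, the metabotropic receptor for GABA, 3 were lower and none higher (median -0.38). Its auxiliary subunit Kctd16 fell from 1080 ± 164 to 552 ± 127, a log2 fold change of -0.98 (adjusted p = 0.00054). Of 4 tested genes of chloride transport, which sets the force on ions through the open channel, 2 were lower and 1 higher.

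How did the levels in RS, with shorter deprivation and 2 hr of recovery sleep, compare with CS and SD? Between CS and RS, 2 of the 7 subunits were called, both lower, where 8.22% of 12752 genes were called lower and 9.28% higher. Gabrb2 ranged from 370 to 631 in RS (median 439), with a log2 fold change from CS of -0.50 (SE 0.14, adjusted p = 0.0388). Gabrb1 ranged from 384 to 819 in RS (median 506), with -0.51 (SE 0.17, adjusted p = 0.048). RS mice overlapped CS mice for both genes.

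The remaining subunits were not called in RS. Gabra4 had the largest estimate at -0.59 (95% interval -1.02 to -0.15, adjusted p = 0.054), and Gabra2 (-0.38), Gabra3 (-0.37) and Gabra5 (-0.31) lay between that and 0. Gabrd came to 0.31 (95% interval -0.17 to 0.79). The median over the 7 was -0.38 against 0.02 for all genes tested. Correction for GC content left 1 call, Gabrb2 at -0.32 (adjusted p = 0.0432), with Gabrb1 at -0.12. Calls over all genes dropped with it from 2232 to 637.

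These calls lay close to the threshold. No subunit was called without WT CS replicate 1, 2 or 3, or without WT RS replicate 3, 4, 5, 6 or 12, 4 were called without WT CS replicate 6 and 5 without WT RS replicate 1, which had the highest RS level of 5 of the 7 members. The adjusted p of Gabrb1 was also 0.0516 without WT CS replicate 4. The calls over all genes moved in the same fits, from 2232 to 223, 98 and 0 without WT CS replicates 1, 2 and 3, to 3 without WT RS replicate 4, to 0 without WT RS replicate 3, 5, 6 or 12, to 3366 without WT CS replicate 6 and to 3740 without WT RS replicate 1.

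Between SD and RS no subunit was called by limma, edgeR or DESeq2, and 2 had an unadjusted p under 0.05, Gabra2 at 0.32 (95% interval 0.02 to 0.62) and Gabrb2 at 0.24 (95% interval 0.01 to 0.47). Among all 12921 genes limma called 0.0232%, which is 3 genes, edgeR 3 and DESeq2 54, and 5.29% had an unadjusted p under 0.05. Shorter deprivation and recovery sleep cannot be told apart in this comparison. The RS means of the 6 subunits lay between those of CS and SD, for example 459 ± 88.1 for Gabrb2 against 648 ± 133 and 384 ± 36.5. The comparisons with CS share the CS mice and are not independent. Of the lists, in CS to RS 3 of 5 tested other GABA-A subunits, 2 of 19 assembly and anchoring genes, 1 of 5 GABA-B receptor genes and 1 of 4 chloride transport genes were lower. Higher were 2 assembly and anchoring genes and 3 of the 8 genes for GABA synthesis, release, uptake and breakdown. The called chloride transport gene was Stk39, a kinase that regulates chloride cotransporters, which fell from 189 ± 13.5 to 140 ± 16.5 (log2 fold change -0.44, adjusted p = 0.0329).

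**Figure D3:**
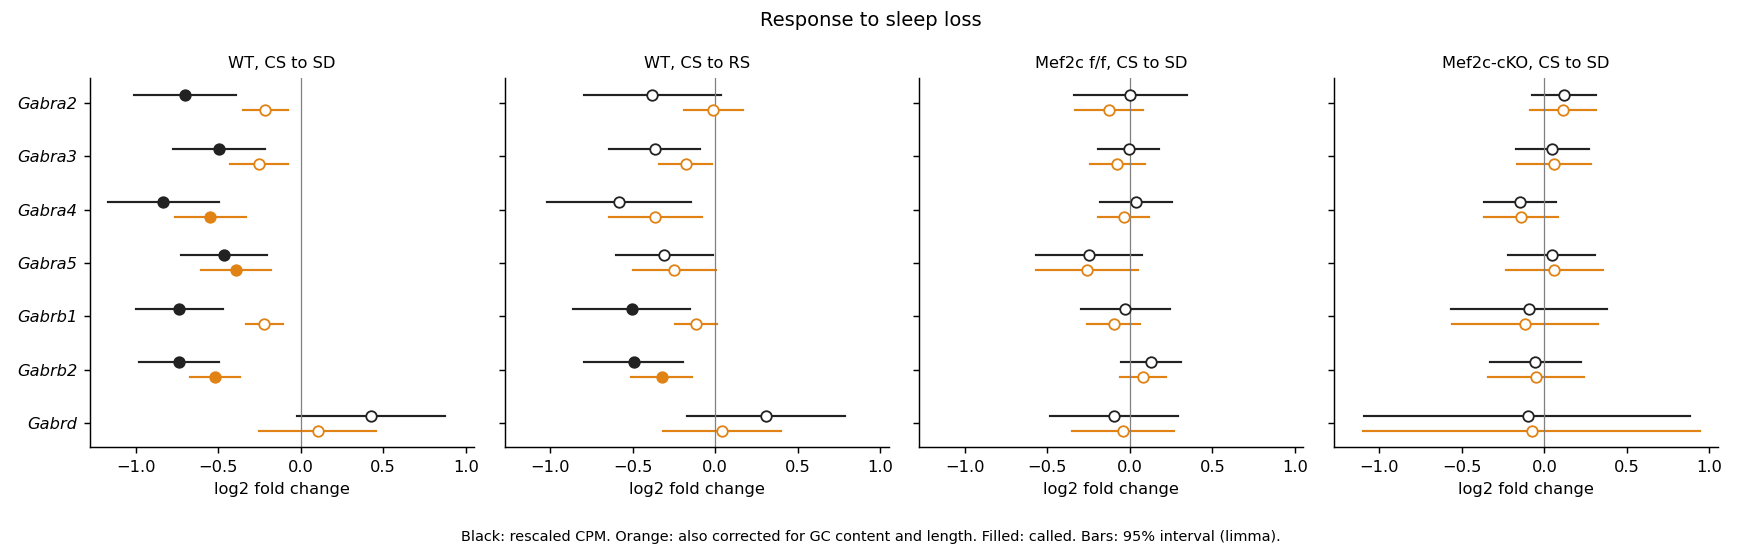
Log2 fold change of each subunit against CS in WT (SD and RS), Mef2c f/f (SD) and Mef2c-cKO (SD), with 95% intervals from limma, on rescaled CPM (black) and after correction for GC content and length (orange), filled where called. In WT the SD estimates of 6 subunits lie between -0.46 and -0.83, and in Mef2c f/f and Mef2c-cKO every interval contains 0.

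No such change was called in the floxed or the knockout mice. In Mef2c f/f mice no subunit was called from CS to SD by limma, edgeR or DESeq2, and none had an unadjusted p under 0.05 in limma. Of all 12410 genes limma called 0.0403%, which is 5 genes, edgeR 9 and DESeq2 466, and 17% had an unadjusted p under 0.05. Gabrb2 stood at 478, 448, 486 and 430 in the 4 CS mice and at 488, 487 and 535 in the 3 SD mice. The log2 fold change was 0.13 (95% interval -0.05 to 0.31), where the WT interval was -0.98 to -0.49. Gabra4 stood at 238, 185, 200 and 192 in CS and at 197, 207 and 222 in SD, with overlapping groups and a log2 fold change of 0.04 (95% interval -0.18 to 0.26). Gabra5 had the largest estimate, -0.25 (95% interval -0.57 to 0.07).

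In Mef2c-cKO mice no subunit was called by any of the 3 tools, and none had an unadjusted p under 0.05 in limma. Of all 12810 genes limma called 0.0234%, which is 3 genes, edgeR 3 and DESeq2 25, and 3.05% had an unadjusted p under 0.05. Gabrb2 stood at 354, 385 and 358 in CS and at 394, 298 and 371 in SD, a log2 fold change of -0.06 (95% interval -0.33 to 0.22). Gabra4 stood at 193, 171 and 156 in CS and at 160, 156 and 151 in SD, a log2 fold change of -0.15 (95% interval -0.37 to 0.07). Gabrd varied most, at 54.1, 37.4 and 15.8 in CS, the lowest in the library with high astrocyte markers, and at 30.6, 23.4 and 36.3 in SD. Without that library the estimate of Gabrd was -0.59 (adjusted p = 0.939). No member of the pathway lists was called from CS to SD in either genotype. The difference between the responses of Mef2c-cKO and Mef2c f/f mice was called for no subunit by any of the 3 tools, and none had an unadjusted p under 0.05 in limma. Of all 12860 genes limma called 0.00778%, which is 1 gene, edgeR 1 and DESeq2 59, and 7.81% had an unadjusted p under 0.05. For Gabrb2 this difference was -0.18 (95% interval -0.48 to 0.12) on the log2 scale, and for Gabra4 -0.19 (95% interval -0.49 to 0.11).

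The response of Mef2c f/f mice differed from that of WT mice for 3 subunits, Gabrb2 by 0.86 (adjusted p = 0.0145), Gabra4 by 0.87 (adjusted p = 0.0292) and Gabrb1 by 0.71 (adjusted p = 0.0302), where 9.35% of all 13106 genes had a difference in this direction. Gabra2 at 0.70 (adjusted p = 0.0528) and Gabra3 at 0.49 (adjusted p = 0.0767) did not pass, and Gabra5 had 0.22 and Gabrd -0.52. This difference across genes had a Spearman rho of -0.756 with GC content, and after the correction Gabrb2 alone was called, at 0.60 (adjusted p = 0.0116). The correction took the calls over all genes from 1983 to 281. With quantile normalization Gabrb1 was not called (0.32, adjusted p = 0.104). No subunit was called without Mef2c f/f SD replicate 3, 1 without Mef2c f/f CS replicate 2, CS replicate 4 or SD replicate 1, and 5 without WT CS replicate 5 or 6. In these fits the calls over all genes moved from 1983 to 23, then to 274, 172 and 92, and to 3143 and 3300. Gabra4 alone was lost without Mef2c f/f SD replicate 2 (adjusted p = 0.0522). Of the lists, 2 of 5 tested other GABA-A subunits, 3 of 19 assembly and anchoring genes and 1 of 5 GABA-B receptor genes had a called difference in this direction. In the other direction it was called for 1 assembly and anchoring gene and 1 of the 8 genes for GABA synthesis, release, uptake and breakdown. WT libraries were deeper, and their listed genes summed to 925580 to 985958 CPM against 1000000 in each Mef2c f/f and Mef2c-cKO library, so that genotype and preparation of the data cannot be told apart here.

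The deletion of Mef2c in excitatory neurons was compared with the floxed control within each sleep state. Under CS no subunit was called by limma, with an unadjusted p under 0.05 for Gabra3 and Gabrb2, where limma called 7.67% of all 12681 genes, 973 in number, edgeR 1067 and DESeq2 2095, and 28% had an unadjusted p under 0.05. Gabrb2, at 354 to 385 in Mef2c-cKO against 430 to 486 in Mef2c f/f, had a log2 fold change of -0.33 (SE 0.09, adjusted p = 0.0535). It was called by edgeR (adjusted p = 0.0475), by DESeq2 (adjusted p = 0.000652) and after correction for GC content (-0.39, adjusted p = 0.0201). Gabra3 had a log2 fold change of -0.19 (adjusted p = 0.165). Without Mef2c-cKO CS replicate 8, the library with high astrocyte markers, no subunit was called by limma either, Gabrb2 had -0.32 (adjusted p = 0.122), and the estimate of Gabrd moved from -0.51 to -0.01.

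After SD, 3 of the 7 subunits differed, Gabrb2 and Gabra4 lower and Gabra5 higher in Mef2c-cKO, where 5.99% of all 12774 genes were called lower and 9.1% higher. Gabrb2 stood at 394, 298 and 371 in the Mef2c-cKO mice against 488, 487 and 535 in the Mef2c f/f mice. No knockout mouse reached the lowest floxed mouse, and the log2 fold change was -0.52 (SE 0.11, adjusted p = 0.0161). Gabra4 stood at 160, 156 and 151 against 197, 207 and 222, a log2 fold change of -0.42 (SE 0.07, adjusted p = 0.00567), again with no overlap.

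Gabra5, found mainly outside synapses, stood at 69.6, 54.3 and 67.8 in Mef2c-cKO SD against 48.8, 44.1 and 49.8 in Mef2c f/f SD. It was higher in each knockout mouse, by 0.41 on the log2 scale (SE 0.10, adjusted p = 0.0296). Gabrd stood at 30.6, 23.4 and 36.3 against 37.5, 51.6 and 39.7. The groups did not overlap, but limma did not call it at -0.51 (SE 0.17, adjusted p = 0.0705), while it was called by DESeq2 (adjusted p = 0.0143) and after correction for GC content (-0.63, adjusted p = 0.0321). Non-overlapping groups were thus seen for 4 of the 7 subunits, and for 40.3% of all genes tested with 3 mice a group.

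Gabra2 (0.10, 95% interval -0.08 to 0.27), Gabra3 (-0.14, 95% interval -0.35 to 0.08) and Gabrb1 (-0.17, 95% interval -0.42 to 0.09) were not called. As a share of the summed level per kb, Gabrb2 made up 28.1 ± 1.01% in Mef2c-cKO SD (n = 3) and 33.8 ± 0.249% in Mef2c f/f SD (n = 3), and Gabra5 10.9 ± 0.281% and 6.85 ± 0.315%. The Gabra4 call remained without any 1 library. The Gabrb2 call was lost without Mef2c f/f SD replicate 1 (adjusted p = 0.0596) or 3 (adjusted p = 0.0712), and the Gabra5 call without any of the 6 libraries but Mef2c-cKO SD replicate 6, with adjusted p values of 0.0756 to 0.0912, and after correction for GC content (0.35, adjusted p = 0.0511).

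**Figure D4:**
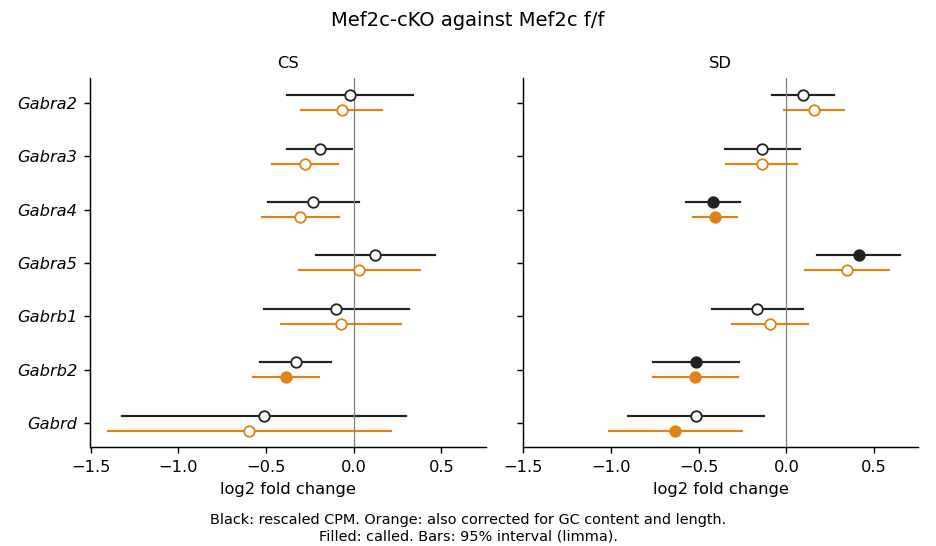
Log2 fold change of Mef2c-cKO against Mef2c f/f for each subunit under CS (left) and SD (right), with 95% intervals from limma, on rescaled CPM (black) and after correction for GC content and length (orange), filled where called. After SD, Gabra4 at -0.42 and Gabrb2 at -0.52 lie below 0 and Gabra5 at 0.41 above it.

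Markers of other cells moved with the genotype. Summed astrocyte markers ran from 780 to 963 in Mef2c-cKO SD and from 594 to 646 in Mef2c f/f SD, with 2 of 5 called higher and none lower. Summed inhibitory neuron markers ran from 756 to 862 against 628 to 721, with 3 of 7 higher and 2 lower, and excitatory neuron markers from 1540 to 1740 against 1810 to 1940, with 1 of 5 lower. Summed striatal neuron markers ran from 276 to 527 against 196 to 406, with all 5 estimates above 0 (median 0.69) and none called. Their part in the subunit differences was not tested. All 4 microglial markers were detected in each library, and 3 of them were called higher in Mef2c-cKO SD than in Mef2c f/f SD.

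In the pathway lists after SD, 3 of 6 tested other GABA-A subunits were lower and 1 higher. Gabrg3, a gamma subunit, was lower in Mef2c-cKO at 287 ± 49.2 against 410 ± 27.4 (log2 fold change -0.53, adjusted p = 0.0226). The subunit counted as higher was Gabrq, the theta subunit, at 1.41 ± 0.217 against 0.564 ± 0.0856. It passed the filter on low values only through the knockout group, where it is high, so its call is no evidence of a difference. Of 19 assembly and anchoring genes, 1 was lower, Plcl1 (-0.39, adjusted p = 0.025), and 1 higher, Hap1, which encodes a carrier protein of receptor traffic (0.91, adjusted p = 0.0025).

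Of the 8 genes for GABA synthesis, release, uptake and breakdown, 3 were higher and none lower, with a median of 0.35. Of 5 GABA-B receptor genes 2 were lower and 1 higher. Gabbr2, a subunit of the GABA-B receptor that couples it to G proteins, was 233 ± 14.8 in Mef2c-cKO SD and 345 ± 17.6 in Mef2c f/f SD (log2 fold change -0.56, adjusted p = 0.00253). Its auxiliary subunits went in opposite directions, with Kctd16 at -0.94 (adjusted p = 0.00697) and Kctd12 at 0.46 (adjusted p = 0.013). The same was seen under CS, with Kctd16 at -1.15 (adjusted p = 0.0149) and Kctd12 at 0.79 (adjusted p = 0.0493), and Gabarap, which encodes a receptor-associated trafficking protein, was higher there by 0.51 (adjusted p = 0.0159). Under CS 1 of the 8 genes for GABA synthesis, release, uptake and breakdown was called higher as well, and none of 6 tested other GABA-A subunits was called. No tested chloride transport gene was called in either sleep state.

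The subunits varied together between WT mice. Over the 20 WT libraries, the 15 pairs of the other 6 subunits had a Pearson r of 0.796 to 0.959 on the log2 scale, and 0.607 to 0.932 after the group means were taken out. Gabrd had an r of -0.823 to -0.651 with the other 6, and -0.804 to -0.534 within groups. These values describe libraries that share depth and base composition, and carry no test. Of 12155 genes, the patterns most like Gabrb2 were those of the potassium channel genes Kcnt2 (r = 0.988) and Kcnh7 (0.986), and most like Gabra4 those of Atr (0.987) and Trpc1 (0.986). Gabrb1 was closest to Tanc2 (0.995) and Lsamp (0.994), Gabra2 to Zfp804a (0.988) and Nalcn (0.987), Gabra3 to Chl1 (0.977) and Bmp3 (0.97), and Gabra5 to RP23-313O9.1 (0.948) and Cep170 (0.94). Gabrd was closest to Slc37a4 (0.967) and Maf1 (0.964), whose transcripts hold 55.5% and 56.1% GC.

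Across the 7 groups, Gabrb2 was highest in WT CS (648 ± 133), followed by Mef2c f/f SD (503 ± 27.8), Mef2c f/f CS (461 ± 26.5), WT RS (459 ± 88.1), WT SD (384 ± 36.5), Mef2c-cKO CS (366 ± 16.8) and Mef2c-cKO SD (354 ± 50.3), and only the steps from WT CS to Mef2c f/f SD and from there to Mef2c f/f CS were larger than the SD of both neighbours. Gabra4 had the order WT CS (319 ± 109), WT RS (211 ± 64.7), Mef2c f/f SD (209 ± 12.8), Mef2c f/f CS (204 ± 23.7), WT SD (173 ± 19.2), Mef2c-cKO CS (173 ± 19.0) and Mef2c-cKO SD (156 ± 4.29), where only the step from Mef2c f/f CS to WT SD was larger than both SDs. Gabra5 was highest in WT CS (72.8 ± 13.8) and lowest in Mef2c f/f SD (47.6 ± 3.05), with Mef2c-cKO SD (63.9 ± 8.38) and CS (61.7 ± 4.03) next after WT CS. Gabrd was highest in WT SD (57.8 ± 8.54) and lowest in Mef2c-cKO SD (30.1 ± 6.45). Gabrb1 (775 ± 169), Gabra2 (300 ± 95.5) and Gabra3 (148 ± 35) were likewise highest in WT CS, and among the other groups their means spanned 448 to 551, 158 to 230 and 103 to 127. Where these orders set WT groups against Mef2c f/f or Mef2c-cKO groups, genotype and preparation of the data cannot be told apart.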

How the data were processed

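Frontal cortex mRNA was sequenced by the authors, who cleaned the reads (FASTQC, Trimmomatic), aligned them with STAR (mm10), counted those mapped uniquely in each gene (HTSeq) and deposited CPM. All 711645 CPM values were whole reads within 0.01, which gave each library's total. To even out composition, median-of-ratios factors over the 33 libraries divided the CPM, and log2 was taken after adding 0.5. The fit used limma 3.58.1 (R 4.3.3, trend) on the compared groups alone, for genes that reached a CPM of 1 in every replicate of 1 or more of them, after a test on simulated data. A call required an adjusted p (Benjamini-Hochberg, all genes tested) up to 0.05 and a log2 fold change of 0.3 or more in size, but for interactions the adjusted p only. P-values set each group difference against the spread between the mice within groups, which limma moderates by a trend over all genes. Alternatives were CPM as deposited, quantile normalization, a pseudocount of 1, no filter, edgeR 4.0.16, DESeq2 1.42.0, a spline correction for GC content and length (GENCODE, GRCm38), a block on replicate number and leaving out single libraries. Members and lists were chosen with earlier results of these data known. Named are the 7 members, the 2 genes most like each over WT libraries, and at most 5 called genes per list whose groups did not overlap. A few single genes of the lists are counted but not named here.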

Additional observations from a re-analysis of the deposited data

Results flagged for a closer look

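In WT CS, replicate 2 lay far above the other 5 mice for 3 of the 7 subunits. Its level was 489 rescaled CPM for Gabra2, where the others ran from 237 to 298, 1100 for Gabrb1, where they ran from 640 to 774, and 902 for Gabrb2, where they ran from 525 to 658. This library also had the lowest scale factor, 0.7165, and the lowest WT level of Gabrd, 22.2. In Mef2c f/f CS, replicate 3 lay far above the others for Gabra5, at 76.6 against 48.4 to 52.7. These came from 28 groups of 4 to 7 mice that were examined, and about 1 in 20 such groups is expected to show a mouse this far off. The 28 are the 7 subunits in the same sets of mice, and the subunits vary together, so they are not independent. WT CS replicate 2 gave 3 of the flags.

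The response to SD differed between WT and Mef2c f/f mice in a test of the difference itself for Gabra4 (0.874 on the log2 scale, adjusted p = 0.0292), Gabrb1 (0.711, adjusted p = 0.0302) and Gabrb2 (0.865, adjusted p = 0.0145), by limma. After correction for GC content and length Gabrb2 alone was called. No subunit was called without Mef2c f/f SD replicate 3 or with the replicate number as a block. Genotype and preparation of the data cannot be told apart in this difference.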

How the results depend on the processing

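Counts of called subunits from CS to SD in WT were 6 and changed to 3 with the GC and length correction and to 5 with CPM as deposited, of which 4 were lower and Gabrd was higher. From CS to RS in WT they were 2 and became 1 with CPM as deposited, with edgeR and with the GC and length correction, 0 with quantile normalization and with no filter, and 4 with DESeq2. For Mef2c-cKO against Mef2c f/f in CS, 0 became 1 with edgeR, DESeq2 and the GC and length correction, and for the difference between the Mef2c f/f and WT responses 3 became 1 with that correction, 2 with quantile normalization and 4 with DESeq2. For Mef2c-cKO against Mef2c f/f in SD, 3 became 4 with DESeq2. With the GC and length correction, calls over all genes fell from 5826 to 2550 for CS to SD in WT and from 2232 to 637 for CS to RS. They rose from 973 to 1485 for Mef2c-cKO against Mef2c f/f in CS. For the difference between the Mef2c f/f and WT responses they fell from 1983 to 281. With single libraries left out, counts ranged from 6 to 7 for CS to SD in WT, from 0 to 5 for CS to RS in WT, from 1 to 3 for Mef2c-cKO against Mef2c f/f in SD and from 0 to 5 for the difference between Mef2c f/f and WT. The causes were not tested. Where a group was left with 2 mice, the fit pooled their spread with the other group.

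Mice with the same replicate number did not deviate together in all pairs. In WT the correlations ran from -0.329 to 0.554 for CS and SD and from 0.068 to 0.666 for CS and RS. Every CS and RS pair was thus positive, and what mice with the same number share beyond it was not tested. With the replicate number as a block, the count was 0 for CS to SD in WT (adjusted p of 0.0509 to 0.0978), 4 for CS to RS in WT and 0 for the difference between Mef2c f/f and WT, and it changed no other count. The block could not be fitted for Mef2c-cKO against Mef2c f/f, whose mice share no numbers within a sleep state. Under the block, log2 fold changes took the opposite sign for Gabra2 (-0.107) and Gabrd (0.0391) from CS to SD in Mef2c f/f, for Gabrb1 (0.205) and Gabrb2 (0.0491) in Mef2c-cKO, and for Gabrb1 (0.302) in the difference between these 2 genotypes.

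Other changes of sign concerned estimates near 0 that were never called. From CS to SD in Mef2c f/f, Gabra3 was 0.0043 with CPM as deposited, Gabra2 was -0.00663 with quantile normalization, -0.021 with edgeR, -0.0244 with DESeq2 and -0.127 with the GC and length correction, and Gabra4 was -0.0378 with that correction. For Mef2c-cKO against Mef2c f/f in CS, Gabra2 was 0.083 and Gabrb1 0.00413 with CPM as deposited, and 0.0606 and 0.0518 with quantile normalization. The difference between Mef2c-cKO and Mef2c f/f responses was 0.0168 for Gabrd with quantile normalization, and that between Mef2c f/f and WT -0.0455 for Gabra5 with CPM as deposited. With single libraries left out, estimates from CS to SD in Mef2c f/f ranged from -0.107 to 0.118 for Gabra2, -0.0649 to 0.0404 for Gabra3, -0.00744 to 0.116 for Gabra4, -0.0972 to 0.0594 for Gabrb1 and -0.234 to 0.0391 for Gabrd. In Mef2c-cKO they ranged from -0.0206 to 0.139 for Gabra3, -0.0223 to 0.156 for Gabra5, -0.291 to 0.0946 for Gabrb1, -0.138 to 0.064 for Gabrb2 and -0.595 to 0.278 for Gabrd. For Mef2c-cKO against Mef2c f/f in CS the ranges were -0.131 to 0.0937 for Gabra2 and -0.287 to 0.0986 for Gabrb1, and for the difference between their responses -0.0129 to 0.147 for Gabra3, -0.264 to 0.122 for Gabrb1 and -0.499 to 0.375 for Gabrd.

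With 3 or 4 mice a group, Gabrd in particular was loosely measured, and its interval from CS to SD in Mef2c-cKO ran from -1.09 to 0.88.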
